A study of Mus musculus with 23 samples.

Results

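The 10 genes that encode, load and regulate MHC class II molecules (H2-Aa, H2-Ab1, H2-Eb1, Cd74, H2-DMa, H2-DMb1, H2-DMb2, H2-Oa, H2-Ob and Ciita) were taken by symbol from a table of 47729 genes and followed through 23 RNA libraries of dendritic cells (DCs). The cells came from spleens of wild type BALB/c mice and were sorted into DC1a (CD8 high, CD172 negative), DC1b (CD8 intermediate, CD172 positive), DC2 (CD8 low, CD172 high) and DC3 (CD8 negative, CD172 low) cells. The mice were untreated (2 pools of mice, 8 libraries) or carried the label TLI (4 pools, 15 libraries, with no DC2 library of TLI pool 2 analysed here). The labels do not expand TLI, a common short form of total lymphoid irradiation. By the batch numbers in the labels, batch 1 held both untreated pools together with pools 1 and 2 of the TLI mice, and batch 2 held TLI pools 3 and 4, so batches can be compared among TLI libraries alone. No transgene or deletion is named, and the age of the mice and the number per pool are not given in the sources used here. The sort stain included an antibody against MHC class II, so class II protein was itself part of how the cells were chosen.

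Class II molecules present peptides from endosomes to CD4 T cells, and dendritic cells are known for their high class II levels. A molecule is a pair of an alpha and a beta chain, in mice I-A (H2-Aa with H2-Ab1) and I-E (H2-Eb1 with its alpha chain). The invariant chain Cd74 fills the groove until endosomal proteases degrade it, H2-DM (H2-DMa with H2-DMb1 or H2-DMb2) then promotes the exchange of its remnant for peptides, and H2-O (H2-Oa with H2-Ob) inhibits H2-DM. Ciita, the class II transactivator, is recruited by factors that bind the X and Y boxes of the promoters of these genes.

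The promoters are shown because the levels of the genes moved together over the libraries. RefSeq promoter windows on build GRCm38.p6, from 250 bases before to 50 bases after a start site, were matched for 7 of the 10 genes in 8 windows; H2-Ab1, Cd74 and Ciita were not matched. The 120 bases before the start site are given 5′ to 3′ on the strand of the gene for H2-Aa (chr17:34287824-34287943, minus strand), H2-Eb1 (chr17:34305747-34305866, plus strand), H2-DMb1 (chr17:34153071-34153190, plus strand), H2-DMb2 (chr17:34145129-34145248, plus strand), H2-Oa (chr17:34092259-34092378, plus strand) and H2-Ob (chr17:34238785-34238904, plus strand). Capitals mark TGATTGG, which holds the reversed CCAAT of a Y box, and GCAAC and TGATG, letters that occur in X boxes. The letters were chosen after the sequences had been read.
H2-Aa: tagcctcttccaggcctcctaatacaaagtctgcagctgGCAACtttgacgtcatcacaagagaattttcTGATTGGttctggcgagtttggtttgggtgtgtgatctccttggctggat
H2-Eb1: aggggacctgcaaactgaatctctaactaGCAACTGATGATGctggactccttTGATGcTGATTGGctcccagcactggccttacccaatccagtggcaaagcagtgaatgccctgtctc
H2-DMb1: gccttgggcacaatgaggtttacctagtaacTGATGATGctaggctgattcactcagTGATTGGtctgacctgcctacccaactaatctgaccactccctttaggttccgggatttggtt
H2-DMb2: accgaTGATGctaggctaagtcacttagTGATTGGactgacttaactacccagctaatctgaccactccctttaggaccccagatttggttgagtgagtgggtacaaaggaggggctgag
H2-Oa: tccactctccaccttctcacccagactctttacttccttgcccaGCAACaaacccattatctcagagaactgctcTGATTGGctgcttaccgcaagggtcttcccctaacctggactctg
H2-Ob: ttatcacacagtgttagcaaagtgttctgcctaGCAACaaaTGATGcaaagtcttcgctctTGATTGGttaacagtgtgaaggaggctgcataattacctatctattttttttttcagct

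TGATTGG was found in 6 of the 7 genes, in each on the strand of the gene. It began 50 bases before the start site in H2-Aa, 61 in H2-Eb1, 63 in H2-DMb1, 92 in H2-DMb2, 45 in H2-Oa and 59 in H2-Ob. Of all 32851 windows of the same length, 7.82% held it on either strand. GCAAC preceded it in 4 genes, H2-Aa, H2-Eb1, H2-Oa and H2-Ob, and was held by 35.21% of all windows. TGATG was found on the strand of the gene in 5 genes and was held by 39.31% of all windows. Neither window of H2-DMa held TGATTGG. These are matches of letters and were not tested for binding.

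Library depth ranged from 19256447 to 36997890 counts, so a count of 3, taken as the floor, was 0.0811 to 0.156 CPM (counts scaled to a common library total). The floor covers counting error only, since amplified reads are not independent molecules. Each of the 10 genes was above it in each library, the lowest count being 191, of H2-Ob. The labels were checked against marker genes. The 6 DC1 markers summed to 1221 to 4146 CPM in DC1a and DC3 libraries and to 135 to 299 CPM in DC2 libraries, so the DC3 libraries carried DC1 markers. Markers of other cells were also found: the 7 plasmacytoid DC markers summed to 4589 to 5674 CPM in untreated DC1b libraries and to at most 278 CPM elsewhere, the 5 NK cell markers to 115 to 258 CPM in untreated DC3 libraries and to at most 7.39 CPM in the other untreated ones, and the 5 erythroid markers to 19252 to 132790 CPM in TLI libraries of batch 1 and to at most 7126 CPM in batch 2. In such bulk samples fewer cells of a type and less RNA per cell cannot be told apart. The labels name pools of mice, and p-values of edgeR measure the spread between these pools within a subset and treatment. Libraries of the same pool were taken as independent unless the pool was a block. In the unpaired tests of ratios, the spread also held differences of treatment and batch.

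Cd74 was the most abundant of the genes per length. Its median over the 23 libraries was 11101 CPM per kilobase of exon. The chains followed, with medians of 2716 for H2-Ab1, 2674 for H2-Aa and 2367 CPM per kilobase for H2-Eb1, and the ranges of the chains over libraries overlapped. The peptide exchange genes were lower, at 345 for H2-DMa, 292 for H2-DMb1 and 231 CPM per kilobase for H2-DMb2. H2-Oa had 122, H2-Ob 19.9 and Ciita 8.92 CPM per kilobase. The genes together took 1.22 to 12.5% of the counts of a library, with a median of 4.12%. The highest CPM of a gene was 6.65-fold its lowest for H2-DMa and 6.79-fold for H2-Aa, but 45.7-fold for H2-Oa and 57.5-fold for H2-Ob.

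**Figure D1:**
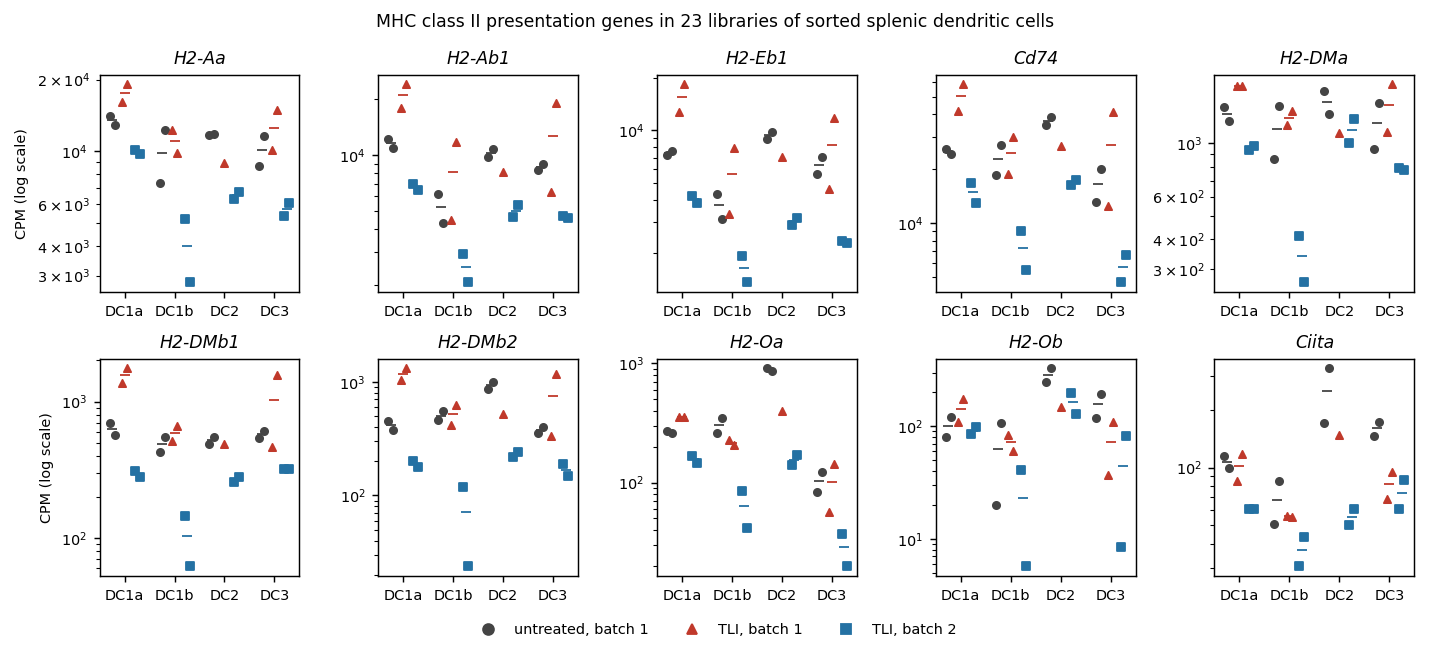
CPM on a log axis of each of the 10 genes in the 23 libraries, by sorted subset, with treatment and batch of each library told apart by the markers of its points and a dash at the mean of each such group. H2-Oa lay lowest in DC3 cells, and most TLI libraries of batch 2 lay below those of batch 1.

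H2-Oa, the alpha chain of the H2-DM inhibitor, separated the subsets most. In untreated mice (chr17:34092340-34095234, plus strand, GRCm38) its CPM was 906 and 866 in DC2 cells, 261 and 348 in DC1b cells, 269.5 and 262 in DC1a cells, and 82.7 and 122 in DC3 cells. DC2 libraries were above all others and DC3 libraries below all others, while DC1a and DC1b overlapped. By edgeR (quasi-likelihood test, p adjusted by Benjamini-Hochberg over 19597 genes) H2-Oa was lower in DC3 than in DC2 cells by a log2 fold change of -3.16 (SE 0.44, adjusted p = 0.00142). It was the 1 gene of the 10 that fell in that comparison, in which 0.459% of all genes tested fell.

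In TLI mice the CPM of H2-Oa, in the order of pools 1 to 4, was 353.3, 353.0, 168 and 146 in DC1a cells, 226, 206, 85.7 and 42.0 in DC1b cells, and 56.7, 144, 37.4 and 19.8 in DC3 cells. In DC2 cells it was 396, 140.5 and 171.5 in pools 1, 3 and 4. DC3 libraries lay below all DC1a libraries, and DC3 overlapped DC2 only across batches. H2-Oa fell in DC3 against DC1a cells by 2.39 on the log2 scale (SE 0.31, adjusted p = 0.000421), where 0.367% of all genes fell, and against DC2 cells by 2.17 (SE 0.32, adjusted p = 0.00129), where 0.929% fell (edgeR, Benjamini-Hochberg). Against DC1b cells it fell by 1.28 (SE 0.29, adjusted p = 0.0437, edgeR), where 0.97% of all genes fell. This last call was lost when any of 19 of the 23 libraries was left out, with adjusted p up to 0.152. H2-Oa was the 1 gene of the 10 called in each of these 3 comparisons. With the pool of mice as a block, 4 of the 10 were called in DC3 against DC1a cells of TLI mice, Cd74, H2-Ab1 and H2-Eb1 besides H2-Oa.

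The log2 ratio of mean H2-Oa CPM in DC3 to that in DC2 cells was -3.11 in untreated, -1.98 in TLI batch 1 and -2.45 in TLI batch 2 libraries. It was -1.38, -1.81 and -2.46 for DC3 to DC1a cells in the same order. The calls of H2-Oa in DC3 cells were lost with no batch term (adjusted p = 0.165 against untreated DC2, 0.172 against TLI DC1a and 0.258 against TLI DC2 cells), and those in TLI mice also in batch 1 alone (adjusted p = 0.173 and 0.18, edgeR).

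Markers of other cells moved with DC3. The 5 NK cell markers, at 115 to 258 CPM in untreated DC3 libraries, summed to 2610, 571, 31.4 and 40.5 CPM in DC3 libraries of TLI pools 1 to 4 and to 0.069 to 175 CPM in the other TLI libraries. In each pool the DC3 library had the highest sum, although no single marker passed between DC3 and another subset by edgeR. B cells are known to express H2-O, and the 10 B cell markers summed to 147 to 340 CPM in DC3 and 48.2 to 112 CPM in DC2 libraries of untreated mice, but overlapped in TLI mice at 60.5 to 79.5 and 21.9 to 120 CPM. The part of these cells in the level of H2-Oa was not tested.

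H2-Ob, the partner chain of H2-Oa, had 246 and 327 CPM in untreated DC2 cells, 118 and 195 in DC3 cells, 80.7 and 121.5 in DC1a cells, and 20.0 and 107 in DC1b cells. DC2 libraries were again highest, but DC3 libraries were not lowest. In TLI mice H2-Ob was 129.7 to 198 CPM in DC2, 85.6 to 176 in DC1a, 8.40 to 109 in DC3 and 5.68 to 84.5 CPM in DC1b cells. It passed the test in none of the comparisons between subsets.

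Ciita (chr16:10480059-10528418, plus strand) was likewise highest in untreated DC2 cells, at 171 and 330 CPM. It had 147 and 174 CPM in DC3, 114.5 and 99.8 in DC1a, and 50.9 and 85.1 in DC1b cells, so DC2 and DC3 overlapped. The difference of DC2 from DC1b cells was 1.95 on the log2 scale and missed the threshold (adjusted p = 0.0515, edgeR). In TLI mice the DC1b libraries had 30.4 to 55.7 CPM and the other subsets 49.8 to 148 CPM, with overlap.

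The 3 class II chains and H2-DMb1 fell in DC1b against DC1a cells of TLI mice, where all 10 genes had a lower fitted level in DC1b cells. The CPM of H2-Ab1, the I-A beta chain, was 17849, 23994, 6976 and 6457 in DC1a cells of pools 1 to 4 and 4450, 11805, 2941 and 2065 in DC1b cells. That of H2-Eb1, the I-E beta chain, was 12758, 18332, 4229 and 3860 in DC1a and 3348, 7902, 1926 and 1355 in DC1b cells. DC1b was below DC1a within each of the pools, although the groups overlapped across batches.

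H2-Ab1 fell in DC1b cells by 1.49 on the log2 scale (SE 0.29, adjusted p = 0.0108), H2-Eb1 by 1.48 (SE 0.25, adjusted p = 0.00363), the I-A alpha chain H2-Aa by 1.06 (SE 0.22, adjusted p = 0.0203) and H2-DMb1 by 1.54 (SE 0.34, adjusted p = 0.0274; all edgeR, Benjamini-Hochberg). H2-DMa (adjusted p = 0.12) and H2-DMb2 (adjusted p = 0.135, edgeR) missed the threshold. The genes called were thus 4 of 10, where 0.204% of all genes fell, and the median log2 difference was -1.25 for the 10 genes and 0.02 for all genes tested. H2-DMb1 and H2-DMb2 are similar copies between which reads can be split, and their sum did not pass the test. The call of H2-Aa was lost without any of 5 libraries (DC1b or DC3 of pool 2, DC1a of pool 3 or 4, DC1b of pool 4), and that of H2-DMb1 without any of 7 (DC1a of each pool, DC1b of pools 1, 3 and 4). Those of H2-Ab1 and H2-Eb1 were kept in 23 of 23 such fits but were lost with no batch term (adjusted p = 0.284 and 0.32) and in batch 1 alone (adjusted p = 0.454 and 0.305, edgeR). DESeq2 called 9 of the 10, all but H2-Ob, and with the pool as a block edgeR called 5, Cd74 besides the 4. The share of 0.204% is of the main edgeR fit, and the share of all genes called in these other fits is not given here.

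Within batches, the log2 ratio of means of DC1b to DC1a cells was -1.14 in untreated, -1.36 in TLI batch 1 and -1.42 in TLI batch 2 libraries for H2-Ab1, and -0.99, -1.47 and -1.30 for H2-Eb1. It was -0.46, -0.67 and -1.31 for H2-Aa. The 9 macrophage and monocyte markers summed to 7486 to 25171 CPM in DC1b and 392.3 to 1453 CPM in DC1a libraries of TLI mice, and 5 of them rose, where 1.22% of all genes rose. The 6 neutrophil markers summed to 1326 to 20403 against 6.41 to 9.89 CPM, and 3 of them rose. In DC2 libraries of TLI mice the macrophage and monocyte markers summed to 5535 to 13511 CPM. The same 5 of them, and 1 of the 6 neutrophil markers, rose in DC2 against DC1a cells, where the share of all genes that rose is not given here. The part of these cells in the lower class II levels was not tested.

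Cd74, the invariant chain, had 34794 and 38464 CPM in untreated DC2 cells, 25551 and 24098 in DC1a, 18374 and 26988 in DC1b, and 13011 and 19756 in DC3 cells. In TLI mice it had 41813, 58325, 16669 and 12911 CPM in DC1a cells of pools 1 to 4, 18639, 29955, 8986 and 5478 in DC1b, 12346, 41309, 4700 and 6686 in DC3, and 26691, 16252 and 17207 in DC2 cells of pools 1, 3 and 4. DC2 libraries were highest in untreated mice, whereas the TLI groups overlapped across batches. Within pools Cd74 was lower in DC1b than in DC1a cells in 4 of 4 and lower in DC3 than in DC1a cells in 4 of 4. Its adjusted p was 0.11 for DC1b and 0.0763 for DC3 against DC1a cells, and both were called with the pool as a block (edgeR).

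H2-DMa, the alpha chain of the exchange factor, had 858 to 1653 CPM over the 8 untreated libraries, and its subsets overlapped. In DC1b cells of TLI mice it had 1190, 1365, 413 and 264 CPM in pools 1 to 4, against 1737, 1728, 941 and 978 CPM in DC1a cells. Of its partners, H2-DMb1 had 427 to 694 CPM in the untreated libraries, where DC1a lay above DC1b and DC2, whereas H2-DMb2 had 865 and 996 CPM in untreated DC2 cells and 354 to 549 CPM in the other subsets. H2-DMb1 had 1369, 1745, 312.5 and 281 CPM in DC1a cells of TLI mice and 514, 656, 145 and 62.1 CPM in DC1b cells. The lower values of both groups were those of pools 3 and 4.

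Between the other subsets fewer genes passed. H2-Aa fell in DC2 against DC1a cells of TLI mice by 0.99 on the log2 scale (SE 0.25, adjusted p = 0.035, edgeR), the 1 gene of 10 where 1.3% of all genes fell. It had 8955, 6318 and 6722 CPM in DC2 cells of pools 1, 3 and 4 and 16079, 19091, 10166 and 9711 in DC1a cells. The groups did not overlap, but the call was lost without any of 8 libraries, and with the pool as a block its adjusted p was 0.0659 while H2-Ab1 and H2-Eb1, 2 of the 10, were called. In DC2 against DC1b cells of TLI mice, 0 of 10 passed in edgeR, where 0.214% of all genes changed, and 0 in DESeq2. At an unadjusted p under 0.05 (edgeR), 4 of the 10 and 2042 of the 19597 genes tested passed.

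In untreated mice edgeR called 0 of the 10 genes between DC1b and DC1a cells (DESeq2 2, unadjusted p under 0.05 in 4), where 0.837% of all genes changed. It called 0 between DC2 and DC1a (DESeq2 1, unadjusted 2; 1.91% of all genes), 0 between DC3 and DC1a (DESeq2 1, unadjusted 2; 0.184%), 0 between DC2 and DC1b (DESeq2 3, unadjusted 5; 0.398%) and 0 between DC3 and DC1b cells (DESeq2 2, unadjusted 3; 0.393%). The shares are of genes called by edgeR at an adjusted p under 0.05. At an unadjusted p under 0.05, 2104, 2559, 1464, 1804 and 1652 of the 19597 genes tested passed in these comparisons, in that order. All 10 class II genes had a lower fitted level in DC1b than in DC1a cells, with a median log2 difference of -0.70, and a higher one in DC2 than in DC1b cells, with a median of 1.01. For H2-DMb2 and H2-Oa the direction between DC1b and DC1a depended on the scaling, since without TMM factors their mean CPM was higher in DC1b (504 against 414, and 304.5 against 266). With the pool as a block, 2 genes were called in DC1b against DC1a cells (H2-Ab1 and H2-Eb1) and 2 in DC2 against DC1b cells (Ciita and H2-Eb1).

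**Figure D2:**
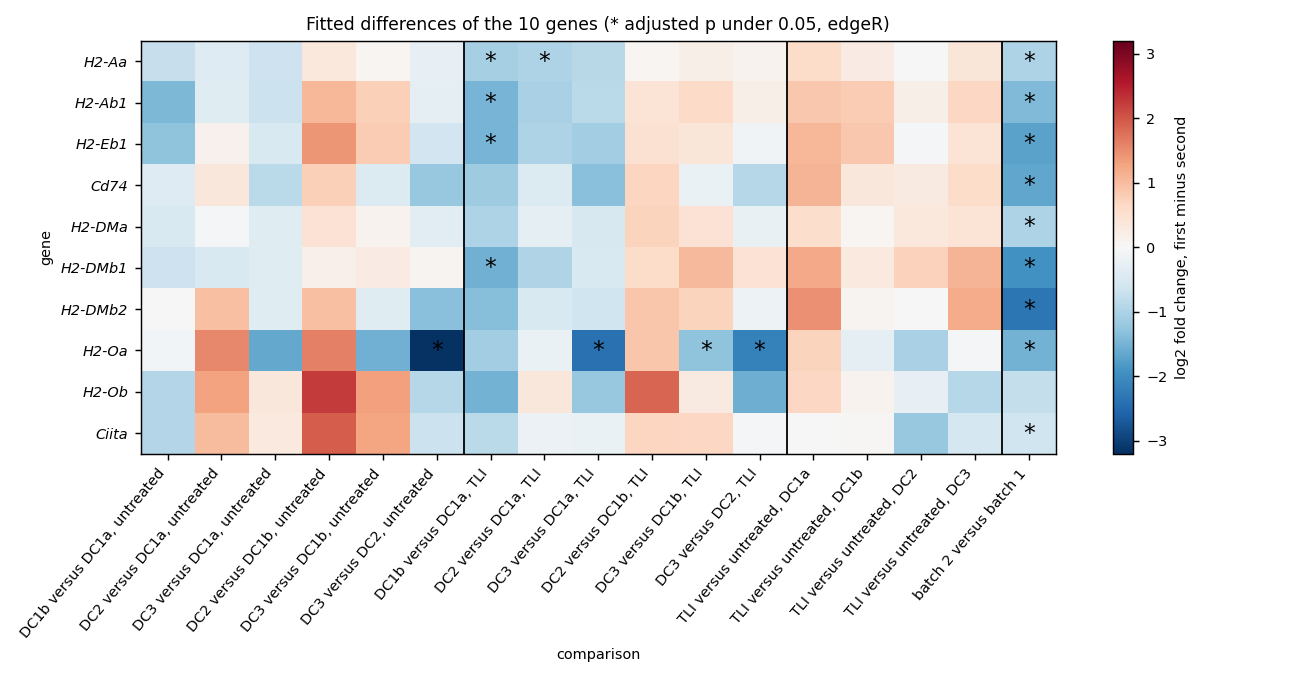
Fitted log2 fold changes of the 10 genes (rows) in each comparison (columns), coloured by size and direction, with a star where the adjusted p of edgeR was under 0.05. H2-Oa is starred in the comparisons of DC3 with other subsets that it passed, and 4 genes are starred for DC1b against DC1a cells of TLI mice.

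The balance of inhibitor to exchange factor was taken as the summed CPM of H2-Oa and H2-Ob over that of H2-DMa, H2-DMb1 and H2-DMb2, with a pseudocount of 1 CPM. It ranged from 0.169 to 0.416 in DC2 libraries, 0.111 to 0.177 in DC1a, 0.101 to 0.188 in DC1b and 0.0361 to 0.128 in DC3 libraries. DC2 and DC3 did not overlap, while DC1a and DC1b overlapped each other and both of these. On the log2 scale DC3 was below DC2 by a difference of -1.98 (adjusted p = 0.0156), below DC1a by -1.04 (adjusted p = 0.0173) and below DC1b by -1.10 (adjusted p = 0.0156), over 6 libraries of each subset and 5 of DC2 (exact two-sided permutation test, adjusted over 12 tests). DC2 was above DC1a by 0.94 (adjusted p = 0.026) and above DC1b by 0.88 (adjusted p = 0.0223, exact permutation test). The call against DC1a was lost without any of 4 of the DC2 libraries (untreated pools 1 and 2, TLI pools 1 and 3; adjusted p = 0.0508, exact), and in pool 4 DC2 was the lower one. DC1b and DC1a differed by 0.05 (adjusted p = 0.781, exact permutation test). These permutations mixed libraries of both treatments and batches and did not use the pairing by pool.

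The ratio of DC3 was the lower one in 6 of 6 pools against DC1a, in 6 of 6 against DC1b and in 5 of 5 against DC2. Permuting signs within pools gave adjusted p of 0.075, 0.075 and 0.0833 (exact), where 0.0625 is the smallest the 5 pairs allow before adjustment. Mean log2 ratios of DC3 and DC2 were -3.08 and -1.32 in untreated, -4.24 and -1.95 in TLI batch 1 (1 DC2 library) and -4.20 and -2.34 in TLI batch 2 libraries. The ratio was therefore lower in DC3 within each of them.

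Cd74 was set against the summed CPM of the chains H2-Aa, H2-Ab1 and H2-Eb1 in the same way. This ratio ranged from 1.10 to 1.19 in DC2, 0.879 to 1.37 in DC1b, 0.645 to 0.95 in DC1a and 0.381 to 0.903 in DC3 libraries. On the log2 scale DC2 was above DC1a by 0.53 (adjusted p = 0.0156) and DC3 below DC2 by -0.96 (adjusted p = 0.0156) and below DC1b by -0.77 (adjusted p = 0.0156, exact permutation tests). DC1b was above DC1a by 0.34 (adjusted p = 0.026), a call lost without any of 5 libraries (DC1a of untreated pools 1 and 2 and TLI pool 3, DC1b of untreated pool 1 and TLI pool 2; adjusted p = 0.0519), and by 0.20 in TLI libraries alone. DC3 against DC1a (-0.42, adjusted p = 0.0571) and DC2 against DC1b (0.19, adjusted p = 0.132, exact permutation tests) missed the threshold. Within pools DC3 was the lower one in 6 of 6 pairs with DC1b and 5 of 5 with DC2, with adjusted p of 0.075 and 0.0833 (exact).

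**Figure D3:**
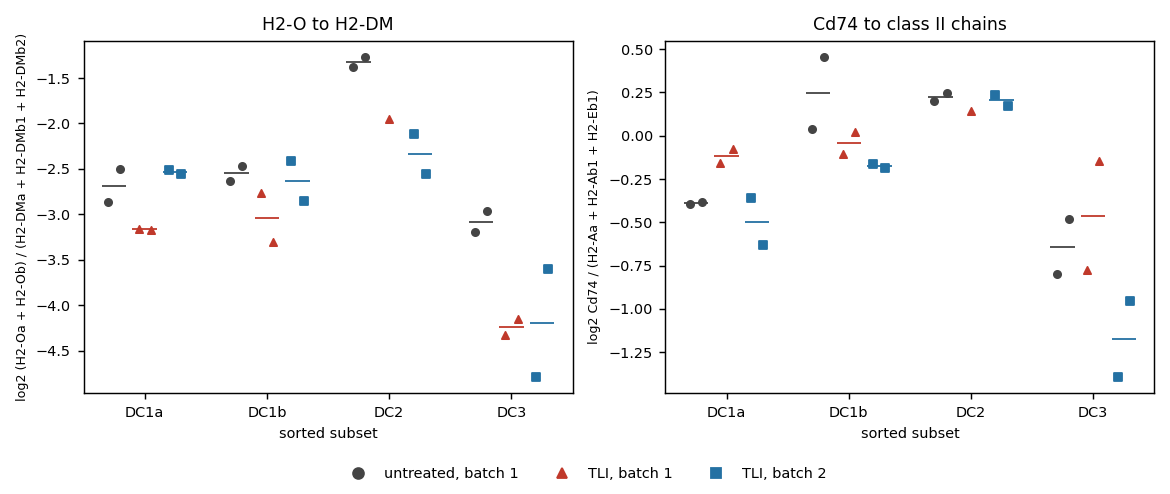
Log2 ratios of H2-O to H2-DM genes and of Cd74 to the class II chains in each of the 23 libraries, by sorted subset, with a line at the mean of each treatment and batch. DC3 libraries lay lowest and DC2 libraries highest in the first, with linear ranges of 0.0361 to 0.128 and 0.169 to 0.416.

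TLI and untreated mice were compared within each subset with batch as a term, estimated from the TLI pools alone. In DC1a cells edgeR called 0 of the 10 genes (DESeq2 1, unadjusted p under 0.05 in 5), where 0.0102% of all genes changed, and the median log2 difference was 0.78 for the 10 genes and 0.15 for all. The lowest adjusted p was 0.365, of H2-Eb1, with 7271 and 7585 CPM in untreated and 3860 to 18332 CPM in TLI DC1a libraries, which lay on both sides of the untreated ones. In DC1b cells 0 genes were called (DESeq2 0, unadjusted 2; 0.413% of all genes), in DC2 cells 0 (DESeq2 1, unadjusted 2; 0.0612%) and in DC3 cells 0 (DESeq2 0, unadjusted 2; 0.0255%). A difference of the treatment effect between subsets was called for 0 of the 10 genes by edgeR and 0 by DESeq2, with 1 at an unadjusted p under 0.05 (0.0357% of all genes were called). These shares are of genes called by edgeR at an adjusted p under 0.05. At an unadjusted p under 0.05, 1912, 2425, 1765 and 2044 of the 19597 genes tested passed in DC1a, DC1b, DC2 and DC3 cells. For the difference of the treatment effect, 1532 passed.

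Most of the genes were lower in one batch of TLI mice. In all, 9 of the 10 genes fell in batch 2, all but H2-Ob, where 8.07% of all genes fell, and the median log2 difference was -1.46 for the 10 genes and -0.23 for all genes. The log2 difference was -2.30 for H2-DMb2 (adjusted p = 0.000121), -1.94 for H2-DMb1 (adjusted p = 8.82e-05), -1.70 for H2-Eb1 (adjusted p = 1.48e-05), -1.67 for Cd74 (adjusted p = 2e-04) and -0.64 for Ciita (adjusted p = 0.0418; all edgeR), the last lost without any of 16 of the 23 libraries. The mean CPM of Cd74 was 32725 in batch 1 and 11111 in batch 2. Within a subset the mean was lower in batch 2 for 38 of 40 pairs of gene and subset, with H2-DMa and H2-Ob in DC2 cells the others. Some markers of other cells also fell in batch 2: 5 of 5 erythroid, 4 of 5 T cell, 4 of 5 NK cell and 4 of 9 macrophage and monocyte markers. Of the other lists, 1 of 6 neutrophil, 1 of 7 plasmacytoid DC and 0 of 10 B cell markers fell. Among DC markers, 1 of 6 DC1 and 0 of 5 DC2 markers fell. The part of other cells in the lower class II levels of batch 2 was not tested.

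**Figure D4:**
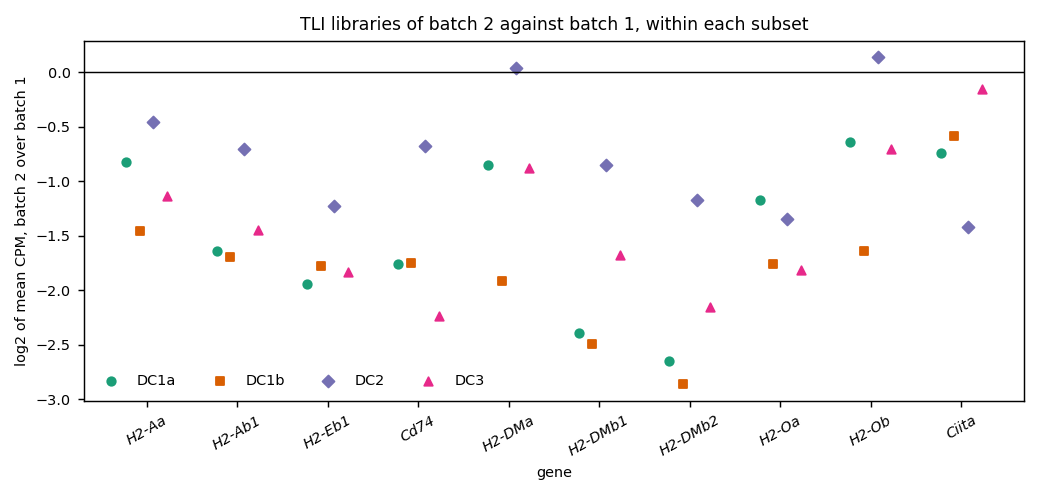
Log2 ratio of mean CPM in batch 2 to batch 1 TLI libraries for each of the 10 genes within each subset, with 0 marked by a line. The ratio is below 0 in 38 of 40 cases, from -2.86 to 0.14.

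Over the 10 genes as a set, TLI pool 2 differed from pool 1 most in DC3 cells. All 10 genes were higher there than in pool 1 of the same batch, by 1.39- to 3.55-fold with a median of 2.75-fold. The median was 1.31-fold in DC1a and 1.21-fold in DC1b cells. In DC1b cells 6 of the 10 genes were higher in pool 2. Of these, H2-Ab1 was 2.65-fold and H2-Eb1 2.36-fold higher, against 2.99- and 2.57-fold in DC3 cells. Without the 3 libraries of that pool, a choice made after seeing the data, H2-Ab1 and H2-Eb1 were the 2 genes called in DC1b against DC1a cells of TLI mice, and 4 were called in DC3 against DC1a cells.

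Other genes of the pathway were counted in lists. Of 9 genes of endosomal processing, Ctss, the protease that trims Cd74, rose in DC1b against DC1a cells of TLI mice by 1.40 on the log2 scale (2206 against 792 mean CPM, adjusted p = 0.000233, edgeR), the comparison in which the chains fell. It rose in DC2 against DC1a cells by 1.26 in untreated (adjusted p = 0.0137) and 1.35 in TLI mice (adjusted p = 0.000478), and fell in DC3 against DC2 cells by 1.45 (adjusted p = 0.00937) and 1.61 (adjusted p = 0.000228; all edgeR). Ctsb, also of the 9, rose in DC1b against DC1a cells of untreated mice by 2.97 (adjusted p = 0.0251, edgeR), where 0.837% of all genes changed. In DC3 against DC1b cells its log2 difference was -3.11 in untreated (adjusted p = 0.0304) and -2.13 in TLI mice (adjusted p = 0.0144, edgeR). Of 14 promoter and Ciita factors, Irf8 fell in DC2 against DC1a cells, with a log2 difference of -5.06 in untreated (adjusted p = 0.00864) and -4.19 in TLI mice (adjusted p = 0.00282, edgeR). Irf4 rose in these cells of TLI mice by 5.02 (adjusted p = 0.035, edgeR). Of 4 turnover genes, Cst3, which encodes the protease inhibitor cystatin C, averaged 51084 CPM in untreated DC1a and 3891 CPM in DC2 cells, a fall by 3.92 (adjusted p = 3.25e-07, edgeR). It fell in DC1b against DC1a cells of untreated mice by 2.48 (adjusted p = 9.78e-05, edgeR). In DC1b cells it rose in TLI against untreated mice by 1.345 (adjusted p = 0.0123, edgeR), where 0.413% of all genes changed. In DC2 against DC1a cells 1.91% of all genes changed in untreated mice and 1.3% fell in TLI mice. The share that rose in these TLI cells, the direction of Ctss and Irf4, is not given here. In DC3 against DC1b cells 0.393% of all genes changed in untreated mice and 0.97% fell in TLI mice. In DC3 against DC2 cells 0.459% of all genes fell in untreated and 0.929% in TLI mice. In DC1b against DC1a cells of TLI mice, 1 of the 9 processing genes rose and 0 fell, where 1.22% of all genes rose and 0.204% fell, 0 of the 14 factors changed (edgeR), and 1 of the 4 turnover genes, Cst3, fell by 1.04. In batch 2 against batch 1, 7 of the 9 processing genes, 2 of the 14 factors (Rfxank and Spi1) and 2 of the 4 turnover genes (March8 and Cd83) fell, where 8.07% of all genes fell; the share of the factors was near that of all genes. H2-Ea-ps, which the C57BL/6 reference annotates as a pseudogene and which in BALB/c mice is the gene of the I-E alpha chain that pairs with H2-Eb1, had 1256 to 15157 CPM over the 23 libraries. It fell in DC1b against DC1a cells of TLI mice by 1.09 (adjusted p = 0.0316, edgeR).

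The 10 genes were correlated with each other over the 23 libraries, which share pools, batches and depth. Pearson's r of log2 CPM had a median of 0.708 over 45 pairs, from 0.481 for H2-DMb1 with H2-Oa to 0.972 for H2-Ab1 with H2-Eb1. The genes most like H2-Ab1 were H2-Eb1, Cfl1 (0.928) and Alyref (0.926), and those most like H2-DMa were Clns1a (0.905), H2-Aa (0.90) and H2-DMb1 (0.889). H2-Ob was less like any gene, with Stra6l (0.796), Abraxas2 (0.786) and Pex16 (0.782) nearest. Without the 2 farthest libraries these were 0.789, 0.57 and 0.503, and Pex16 had 0.481 in batch 1 and 0.892 in batch 2.

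Counting was not stated to use strand. Brd2, which overlaps exons of H2-DMa on the other strand, had 30.5 to 145 CPM against 264 to 1757 CPM of H2-DMa, and BC051537, which overlaps H2-Oa, had 0 to 5.70 CPM. Dexi, which overlaps Ciita, had 0 to 26.8 CPM against 30.4 to 330 CPM of Ciita. The reference is of C57BL/6 and the mice were BALB/c, whose class II alleles differ, and how this affected the counts was not tested.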

How the data were processed

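The deposited table holds estimated counts per gene that the authors made with Trimmomatic, HISAT2 and StringTie on GRCm38, per the submitters' processing notes, from SMART-Seq libraries of about 1000 sorted cells. The design had assumed plain counts; the deposited values were whole and went into the fits without rounding. Of 47729 identifiers, 47224 had a symbol. The 10 genes, the lists and the tests were chosen with earlier results of these data known. Counts were scaled by TMM (factors 0.84 to 1.18) and 19597 genes were fitted with edgeR 4.0.16 (R 4.3.3) by the quasi-likelihood test. The model held a mean for each combination of subset and treatment and a term for batch, with 14 residual degrees of freedom. Calls had a Benjamini-Hochberg adjusted p under 0.05 over all genes. All 10 genes are named. Genes of the pathway lists are named for some, not all, of the comparisons in which they were called. Genes most like H2-Ab1, H2-DMa and H2-Ob are the 3 with the highest r. Ratios were tested by exact permutation with scipy 1.17.1. Simulated counts with known changes were also fitted. Of 100 genes changed 8-fold between DC2 and DC1a cells, 17 were recovered in untreated and 46 in TLI mice. Between TLI and untreated DC1a cells 31 of 100 were. Of 100 genes changed 64-fold, 54, 73 and 68 were recovered, in that order. False calls were 2 of 73, 1 of 120 and 2 of 101 calls. The changed genes were drawn from all genes above a low mean CPM, each with its own spread. The shares recovered are therefore not those of the 10 class II genes. In DC2 against DC1a cells of untreated mice, the SE of the 10 ran from 0.31 for H2-Aa to 0.96 for H2-Ob on the log2 scale. A count of 0 genes called does not show that levels were equal. Alternatives were DESeq2 1.42.0, its size factors, no filter, no batch term, batches or treatments alone, H2-DMb1 and H2-DMb2 summed, the pool as a block and each library left out. Libraries of a pool are paired by the labels; residuals of libraries of one pool correlated by -0.16 to 0.067 in TLI and by -0.0058 to 0.0159 in untreated mice.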

Additional observations from a re-analysis of the deposited data

Results flagged for a closer look

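In 36 groups of 4 libraries, the highest or lowest library was checked for standing apart from the others by Dixon's criterion, which chance meets in about 1 in 20 groups. It was met in 2. In DC3 cells of TLI mice, pool 2 had 18994 CPM of H2-Ab1, with a gap to the nearest library of 0.878 of the range. The same library had 1573 CPM of H2-DMb1, with a gap of 0.884 of the range.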

How the results depend on the processing

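Depth did not limit detection of the 10 genes, which lay above the floor in each library, whereas the 2 untreated pools limit the precision of the differences. With the pool as a replicate block, the genes called were 2 in DC1b against DC1a and 2 in DC2 against DC1b cells of untreated mice, and 2 in DC2 against DC1a and 4 in DC3 against DC1a cells of TLI mice. It moved no other count by over 1.5 times. With no filter these counts were 2, 1, 3 and 5, and 7 in DC1b against DC1a cells of TLI mice. With DESeq2 they were, in untreated mice, 2 in DC1b against DC1a, 1 in DC2 against DC1a, 1 in DC3 against DC1a, 3 in DC2 against DC1b and 2 in DC3 against DC1b cells, in TLI mice 9 in DC1b, 3 in DC2 and 4 in DC3 against DC1a cells, and 1 each for TLI against untreated DC1a and DC2 cells. Its size factors in edgeR gave 2 each in DC2 and DC3 against DC1a cells of TLI mice. The untreated libraries alone gave 2 in DC1b against DC1a and 1 in DC2 against DC1b cells, and the TLI libraries alone 0 in DC2 against DC1a and 0 in DC3 against DC1b cells. With no batch term 0 were called in DC3 against DC2 cells of untreated mice and in the 5 comparisons of TLI mice that had calls, and with batch 1 alone 0 in those 5. Batch 2 alone, chosen after seeing the data, gave 2 in DC1b against DC1a and 0 in the others. Without the 3 libraries of TLI pool 2, also chosen after seeing the data, 2 were called in DC1b against DC1a and 2 in DC2 against DC1b cells of untreated mice, and 2 in DC1b, 2 in DC2 and 4 in DC3 against DC1a cells and 2 in DC3 against DC2 cells of TLI mice. The causes were not tested. The share of all genes called is not given here for these alternatives, so their counts are not set against one.

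Without each library in turn, the counts for TLI mice were 2 to 4 in DC1b against DC1a, 0 to 3 in DC2 against DC1a, 1 to 3 in DC3 against DC1a, 0 to 1 in DC3 against DC1b and 1 to 2 in DC3 against DC2 cells. For untreated mice they were 0 to 1 in DC2 against DC1a and in DC2 against DC1b cells, and the batch comparison, itself added after seeing the data, gave 8 to 9.

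For the ratio of H2-O to H2-DM genes, the log2 differences in TLI libraries alone were 0.64 for DC2 and -1.37 for DC3 against DC1a, 0.63 for DC2 and -1.38 for DC3 against DC1b, and -2.01 for DC3 against DC2. Within pools as a block they were 0.86, -1.04, 0.77, -1.10 and -1.92. For Cd74 to the chains they were 0.20 for DC1b and 0.49 for DC2 against DC1a, -0.71 for DC3 against DC1b and -1.0 for DC3 against DC2 in TLI libraries alone, and 0.34, 0.58, -0.77 and -1.08 within pools. None of these passed 0.05 after adjustment, and neither design could, the smallest adjusted p being 0.0625 within pools and 0.0571 in TLI libraries alone. Without each library in turn, the H2-O to H2-DM difference of DC1b from DC1a ran from -0.02 to 0.17, reversing to -0.0191, -0.0219, -0.000398 and -0.0115 without 4 of the libraries, and that of DC2 from DC1a from 0.79 to 1.11. The Cd74 differences ran from 0.25 to 0.39 for DC1b from DC1a, -0.55 to -0.30 for DC3 from DC1a and 0.15 to 0.28 for DC2 from DC1b.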
